A study of Mus musculus with 10 samples.

Results

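Cartpt, Pmch and Oxt encode precursors of neuropeptides, and Cckbr encodes the cholecystokinin B receptor. They were followed in the midbrain of mice with collagen-induced arthritis. The 4 genes were chosen by name, as peptide genes with roles in pain and feeding, and they are 4 of the 8726 genes with a probe on the array. Each has 1 probe, numbered 2241 for Cartpt, 8324 for Cckbr, 8841 for Pmch and 2428 for Oxt, with the Entrez gene identifiers 27220, 12426, 110312 and 18429.

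Neuropeptides are cut from larger precursors, stored in dense-core granules and released to act on G protein-coupled receptors, so that a precursor mRNA marks the cell that sends the signal and a receptor mRNA the cell that can receive it. CART peptide, made from Cartpt, reduces feeding and is abundant in the Edinger-Westphal nucleus of the rodent midbrain. Cckbr is the main brain receptor for cholecystokinin, a peptide that opposes opioid analgesia in the periaqueductal grey. Melanin-concentrating hormone, from Pmch, promotes feeding, and oxytocin, from Oxt, acts in lactation, social behaviour and pain. Both are made mostly by hypothalamic neurons, whose fibres reach the midbrain.

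Midbrain RNA of 2 groups of male DBA/1 mice, aged 8 weeks at the first injection, was compared directly on 10 arrays with 2 colours. Mice of the collagen group received an intradermal dose of type II collagen (100 ul) in complete Freund's adjuvant (100 ul), whereas control mice received only the adjuvant (200 ul). LPS, an endotoxin of bacteria, was given to both groups at day 24, and the controls were thus immune-stimulated mice. Death is labelled at 31 in an unclear unit. The sources used here do not give the number of animals in each RNA.

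The arrays form 5 dye-swap pairs, in which the collagen RNA was labelled with Cy5 on 1 array and with Cy3 on the other. They are called 1a, 1b, 2a, 2b and 3a, after the replicate numbers 1 to 3 in the labels and a letter for the repeat. Pairs of one number were averaged, so n = 3. Each array was scanned 2 or 3 times, 29 scans in all, and 4496 to 8425 of the 10080 probes gave a ratio on an array. All 4 genes had a value in the 3 replicates and so were among the 4139 probes tested. Ratios are log2 collagen over control unless named otherwise. This direction is likely rather than stated: the scanner files name their channels A and B, and A was read as Cy3 because Cy3 comes first in the labels. With A as Cy5 every sign would turn.

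No member passed the test of collagen against control. Cartpt had the lowest mean, -0.21 ± 0.19 (SD, n = 3), or 0.864-fold. Cckbr stood at -0.17 ± 0.20, or 0.889-fold, Pmch at 0.06 ± 0.20, or 1.04-fold, and Oxt at 0.03 ± 0.34, or 1.02-fold. In limma's test across all probes the adjusted p was 0.827 for Cartpt and Cckbr, 0.909 for Pmch and 0.968 for Oxt. Of the 4139 probes 0 passed (0% called), and 163 had an unadjusted p under 0.05 (3.94%), none of them a member.

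The intervals state what these arrays can bound under limma's variance, which is shared in part over all tested probes. Intervals from the replicates of a gene alone would be wider. The 95% interval of the ratio ran from 0.73-fold to 1.02-fold for Cartpt and from 0.748-fold to 1.06-fold for Cckbr. For Pmch it ran from 0.878-fold to 1.23-fold and for Oxt from 0.804-fold to 1.29-fold. Taken one at a time, all 4 of these limma intervals lay within a 1.5-fold change in either direction, as did 93.2% of the tested probes (99.3% for a 2-fold change). This count rests on the shared variance. In whole midbrain RNA, fewer cells of a type and less RNA per cell cannot be told apart.

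Cartpt was the member with the strongest median signal over background. Its replicate ratios were -0.10, -0.10 and -0.43, so it stood below 0 in all 3. Cckbr did so too, with -0.05, -0.05 and -0.40. Being below 0 in all 3 replicates was found for 20.8% of all tested probes (29.7% had 1 sign in all 3, either way), and the median of all tested probes was itself -0.025. In both genes replicate 3, which has 1 dye-swap pair, lay apart from the other two.

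The Cartpt pairs stood at -0.27 (1a), 0.06 (1b), -0.17 (2a), -0.03 (2b) and -0.43 (3a), 4 below 0 and 1 above. The 2 pairs of replicate 1 thus differed in sign. Cckbr stood at -0.16, 0.05, 0.00033, -0.11 and -0.40 in the same order. Pair 1a was about as far below 0 as the mean of the gene, and pair 3a was the lowest.

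**Figure D1:**
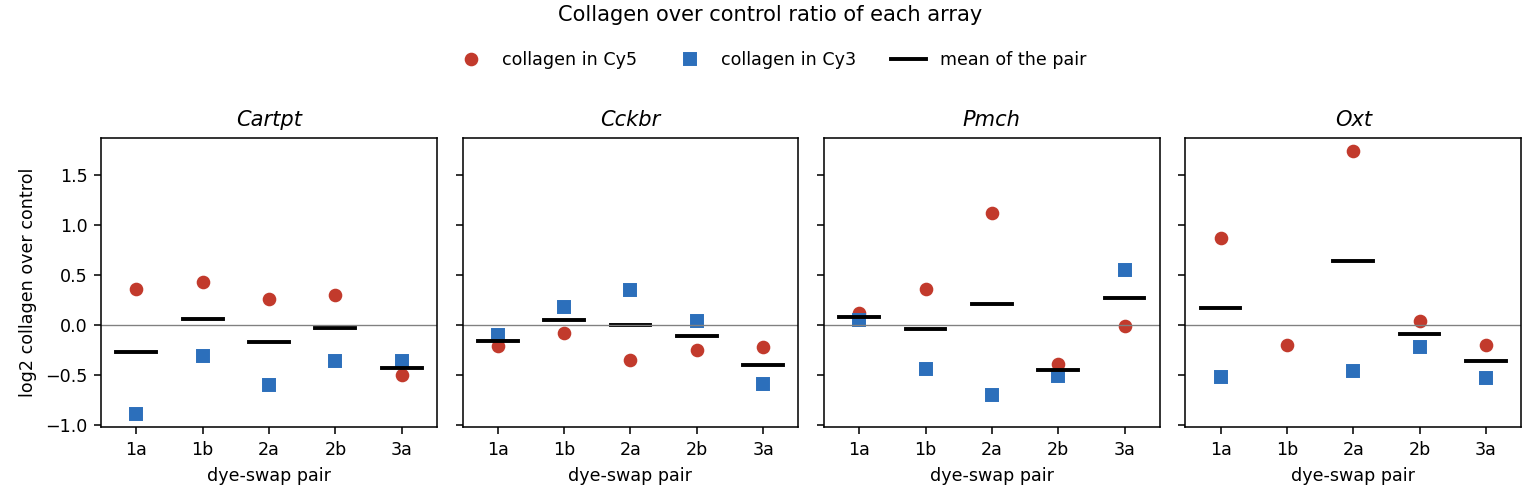
Log2 collagen over control (vertical axis) of each array for the 4 genes, by dye-swap pair (horizontal axis), with circles for arrays that had the collagen RNA in Cy5, squares for Cy3 and a bar for the mean of a pair. For Cartpt the circles lie above 0 and the squares below 0 in pairs 1a, 1b, 2a and 2b, while in pair 3a both lie below 0; Oxt has no pair mean for 1b.

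Before the ratios are turned to collagen over control, the single arrays compare channel B with channel A, after loess. With the collagen RNA in Cy5, the Cartpt log2 ratio of B over A was 0.36 (1a), 0.43 (1b), 0.26 (2a), 0.30 (2b) and -0.51 (3a). With the collagen RNA in Cy3 it was 0.89, 0.31, 0.60, 0.36 and 0.36. After loess the Cartpt ratio was thus above 0 on 9 of 10 arrays, whichever RNA channel B held, and the exception was the array of pair 3a with the collagen RNA in Cy5. The mean of B over A, 0.27 ± 0.30 (SD, n = 3), was larger in size than the collagen ratio of -0.21 and did not pass limma's test (adjusted p = 0.338). The intensities before loess were higher in A in some of these scans, as on the array of pair 2a with collagen in Cy5, where the first scan gave 959082 in A and 893953 in B.

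On the array of pair 3a with collagen in Cy5 the Cartpt spot was dim. Its brightness stood at percentile 7.89 among the spots measured there, against 61.1 to 96.6 on the other 9 arrays. The first scan gave an intensity of 48871 over a background of 78980 in channel A and of 29239 over 44440 in channel B. The first 2 scans gave log2 B over A of -0.23 and -0.78, and the last had no signal in B. On the other array of pair 3a, with the RNAs in opposite dyes, the spot was at percentile 76.5. The part of the dim spot in the ratio of replicate 3 was not tested. Log2 level of Cartpt, after the brightness of the arrays was equalised, was 19.67, 19.76 and 16.94 in the collagen RNA and 19.77, 19.86 and 17.37 in the control RNA of replicates 1 to 3. The values of replicate 3 average the dim spot, at 15.35 for collagen and 15.86 for control, with the other array of pair 3a, at 18.52 and 18.88. The latter lay above the array of pair 1a with collagen in Cy3, at 17.46 and 18.35, and below every other array of replicates 1 and 2. The lowest of those was the array of pair 2b with collagen in Cy3, at 18.86 and 19.22. Whether the level of either RNA was low in replicate 3 was not tested. The level of replicate 3 minus the mean of replicates 1 and 2, over both RNAs, was -2.61 for Cartpt, at percentile 1.93 of the tested probes. Chosen after their values were seen, the forebrain marker Neurod6 stood at -2.39, the midbrain marker Th at -2.12 and the receptor gene Adcyap1r1 at -2.06, at percentiles 2.95, 4.64 and 5.29. Each was the lowest tested gene of its marker or receptor list. The highest of these lists were Lamp5 at -0.06, En2 at 0.36 and Npy2r at 0.16. Replicate 3 was not low for every member: Pmch went the other way, at 1.23 and percentile 93.9. Cckbr stood at -0.37 and Oxt at -1.43, at percentiles 50.5 and 15.2. Among the tested precursors Cartpt was the lowest and Gal the highest, at 1.59 and percentile 97.8. Without replicate 3 the Cartpt ratio was -0.10 and that of Cckbr -0.05.

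Another precursor known from the Edinger-Westphal nucleus, Ucn (urocortin, a peptide of the corticotropin-releasing hormone family), was also read on the array of pair 3a with collagen in Cy5. Its spot stood at percentile 72.3 there, against 44.9 to 88.2 on the others, so it was not dim where Cartpt was. Its level in replicate 3 minus the mean of the other replicates was -0.48, at percentile 45.7 of the tested probes. Its collagen ratios were -0.02, 0.05 and 0.04 in the 3 replicates, with a mean of 0.02 ± 0.03 (SD, n = 3).

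**Figure D2:**
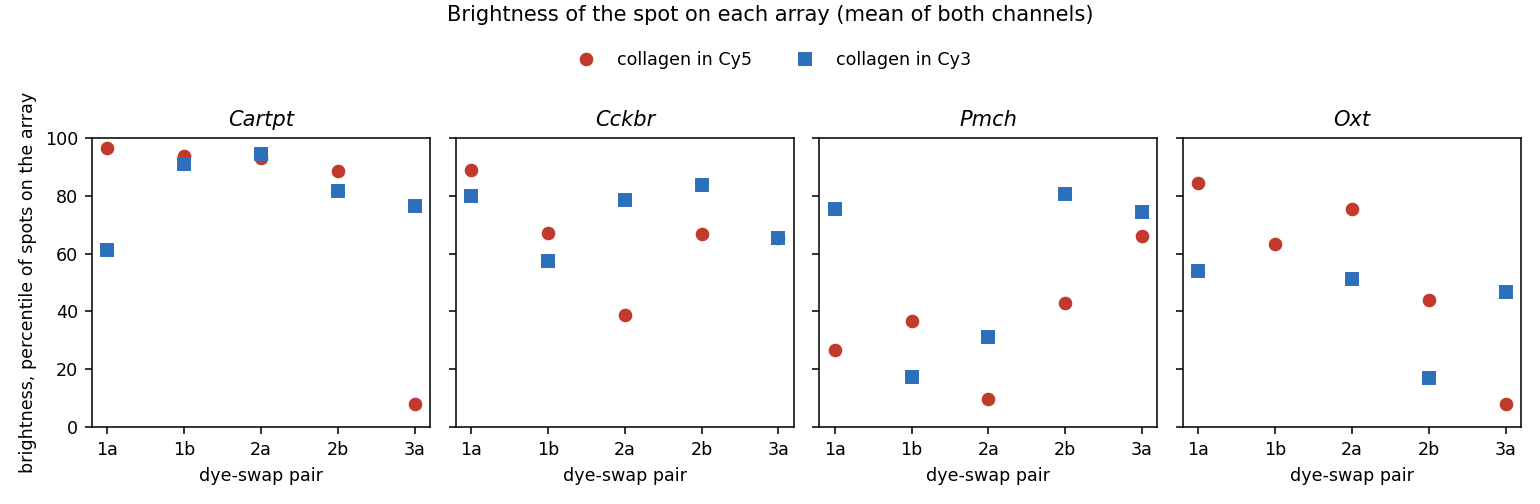
Brightness of each gene's spot on each array, averaged over both channels, as a percentile of the spots measured on that array (vertical axis, 0 to 100), by dye-swap pair (horizontal axis), with circles for the collagen RNA in Cy5 and squares for Cy3. Cartpt lies between 61.1 and 96.6 on 9 arrays and at 7.89 on the array of pair 3a with collagen in Cy5, where Oxt also has its lowest value, 8.15.

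Cckbr, the receptor, was measured in all 29 scans, and none of its spots was saturated. Its spot stood at percentile 38.8 to 88.8 on the 10 arrays, with a median of 67.0. Log2 B over A was -0.21, -0.08, -0.35, -0.25 and -0.22 with the collagen RNA in Cy5 (pairs 1a, 1b, 2a, 2b and 3a). It was 0.10, -0.18, -0.35, -0.04 and 0.59 with the collagen RNA in Cy3. The last value, from pair 3a, was the highest of the 10, and the value of replicate 3, -0.40, rests on these 2 arrays of pair 3a alone. Over both orientations B over A averaged -0.05 ± 0.22 (SD, n = 3; adjusted p = 0.847 in limma's test). Log2 level, after the brightness of the arrays was equalised, was 18.3 ± 0.352 for the collagen RNA and 18.4 ± 0.195 for the control RNA.

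Pmch gave ratios of both signs. The replicates stood at 0.02, -0.12 and 0.27, and the pairs at 0.08 (1a), -0.04 (1b), 0.21 (2a), -0.45 (2b) and 0.27 (3a). Pairs 2a and 2b, which share a replicate number, differed by 0.66 and had opposite signs. Log2 B over A was 0.12, 0.36, 1.13, -0.39 and -0.01 with the collagen RNA in Cy5 (pairs 1a, 1b, 2a, 2b and 3a). With the collagen RNA in Cy3 it was -0.05, 0.44, 0.70, 0.51 and -0.55, so that it was above 0 on 6 of 10 arrays. The spot of Pmch stood at a median percentile of 39.8, from 9.94 to 80.7, and 26 of 29 scans could be used. On 2 arrays, that of pair 2a with collagen in Cy5 and that of pair 1b with collagen in Cy3, the ratio came from 1 scan. In the 3 scans left out, channel A alone had signal. Log2 level was 17.6 ± 0.801 in the collagen RNA and 17.5 ± 0.623 in the control RNA.

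Oxt was the most variable member. The replicates stood at 0.17, 0.28 and -0.36, and their SD of 0.34 exceeded that of 90.5% of the tested probes. The pairs stood at 0.17 (1a), 0.64 (2a), -0.09 (2b) and -0.36 (3a), so that both pairs of replicate 2 differed by 0.73. Pair 1b has no value, because on its array with the collagen RNA in Cy3 all 3 scans had signal in channel A alone. Replicate 1 of Oxt therefore rests on pair 1a. With the collagen RNA in Cy5, log2 B over A was 0.87, -0.20, 1.74, 0.04 and -0.20 in pairs 1a, 1b, 2a, 2b and 3a. With the collagen RNA in Cy3 it was 0.52, 0.46, 0.22 and 0.53 in pairs 1a, 2a, 2b and 3a. The 1.74 of pair 2a was the largest ratio on any array of the 4 genes. Repeat scans of 1 array also disagreed: on the array of pair 3a with collagen in Cy5 the 2 usable scans gave -0.77 and 0.38. Log2 level was 17.4 ± 1.12 in the collagen RNA and 17.4 ± 0.859 in the control RNA (SD, n = 3).

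After loess, log2 B over A of Oxt was above 0 on 7 of 9 arrays, with a mean of 0.49 ± 0.29 (SD, n = 3). This exceeded the mean of 99.8% of tested probes and did not pass limma's test (adjusted p = 0.157), where 55 probes did (1.33% called), all 55 of them below 0. Without replicate 3 the B over A ratio of Oxt was 0.66 and passed, with an adjusted p of 0.0331 in limma's test. Since the channel ratio cancels only where both arrays of a pair are measured, pairs with a missing array were left out.

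Direct partners of the members were mostly out of reach. Cck, Mchr1 and Oxtr, the genes of the ligand of Cckbr and of the receptors for melanin-concentrating hormone and oxytocin, have no probe under these names in the probe table. Avp, which encodes vasopressin and lies next to Oxt in the mouse annotation (GRCm38.p6), was measured on 4 of 10 arrays and in no complete pair. Hcrt, the orexin precursor gene of lateral hypothalamic neurons, was measured on 1 of 10 arrays, at percentile 0.0938. Other hypothalamic markers were measured on more arrays. Otp and Nkx2-1 were read on 7 each, Six6 on 6 and Fezf1 on 5, at median percentiles of 25.2, 22.2, 14.8 and 16.4. Npvf was read on 4, Trh and Ghrh on 3 each, and Sim1 and Hmx3 on 2 each. Of 12 hypothalamic marker genes with a probe, 1 was tested, the peptide gene Gal at 0.03 ± 0.32, where 4139 of all 10080 probes were. Replicates 1 and 2 of Gal rest on pairs 1b and 2b alone. There the array with collagen in Cy5 was read from 1 scan, at percentiles 10.4 and 1.78. The source of the Pmch and Oxt signal within the dissected tissue was not tested.

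Of 13 midbrain marker genes with a probe, 11 were measured in all 3 replicates, among them Ddc, Pitx3, Slc6a4 and Th, the tyrosine hydroxylase gene of dopamine neurons. Of 4 forebrain markers, 2 were, and both were bright, Neurod6 at a median percentile of 82.3 and Lamp5 at 85.8. Tbr1 and Rgs9 were not measured in all 3, with values on 7 and 2 arrays, at median percentiles of 26.1 and 32.7. Signal of Neurod6 and Lamp5 was thus present beside that of midbrain markers, and whether it came from forebrain tissue was not tested. The collagen ratios of the midbrain markers had a median of -0.01, from -0.14 for Lmx1a to 0.35 for Th, which stood at 0.88 in replicate 3. Neurod6 stood at 0.05 and Lamp5 at -0.09.

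All 5 tested cerebellar markers stood below 0, as did 2451 of the 4139 tested probes, and 3 of the 5 did so in all replicates. Their median was -0.15, from -0.40 for Zic4 to -0.03 for Cbln1. None passed limma's adjusted test, and 2 of the 5, Zic4 and Neurod1 (-0.38), had an unadjusted p under 0.05, where 3.94% of all tested probes did. Both were dim, at median percentiles of 21.8 and 25.9. The part of these markers in the peptide values was not tested.

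The wider peptide system was then read from 3 gene lists. Of 62 of their genes with a probe, 24 were tested and 0 passed. Of 9 neuropeptide precursors, 5 stood above 0 and 4 below, with a median of 0.02 against -0.025 over all tested probes. Cartpt was the lowest and Pmch the highest of the 9, so the range of the list, -0.21 to 0.06, is set by members. Sst, which encodes the inhibitory peptide somatostatin, stood at -0.12 ± 0.13. The opioid precursor Pdyn stood at 0.05 ± 0.18 and Pnoc, the nociceptin precursor, at -0.01 ± 0.10.

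Of 9 neuropeptide receptors, 3 stood above 0 and 6 below, with a median of -0.02. The lowest was Adcyap1r1, the receptor for the peptide PACAP, at -0.20 ± 0.08 with -0.12, -0.20 and -0.28 in the replicates. The highest was Avpr1b, the vasopressin V1b receptor gene, at 0.29 ± 0.16 with 0.44, 0.32 and 0.11. These were the 2 list genes with an unadjusted p under 0.05 in limma's test, 0.0456 and 0.0208, and each had an adjusted p of 0.827. Avpr1b was dim, at a median percentile of 21.3, while Adcyap1r1 stood at 69.3.

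Among receptors of the opioid family, Oprd1, the delta opioid receptor gene, stood at -0.08 ± 0.04, and Oprl1, the nociceptin receptor gene, at 0.21 ± 0.48. The Oprl1 mean came from replicate 3, with 0.76 there against -0.17 and 0.04. Among the receptors, 4 of 9 stood below 0 in all 3 replicates and 1 of 9 above, where the shares over all tested probes were 20.8% and 8.92%.

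Genes of peptide processing and granules gave 6 tested genes, 2 above 0 and 4 below, with a median of -0.03. Qpct, the enzyme that forms the pyroglutamate end of several peptides, was lowest at -0.19 ± 0.21, and Cpd, a carboxypeptidase, highest at 0.16 ± 0.29. The granule proteins Chga and Scg2 stood at -0.12 ± 0.19 and -0.01 ± 0.06, and Cpe, the carboxypeptidase that trims peptide intermediates, at 0.01 ± 0.14.

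**Figure D3:**
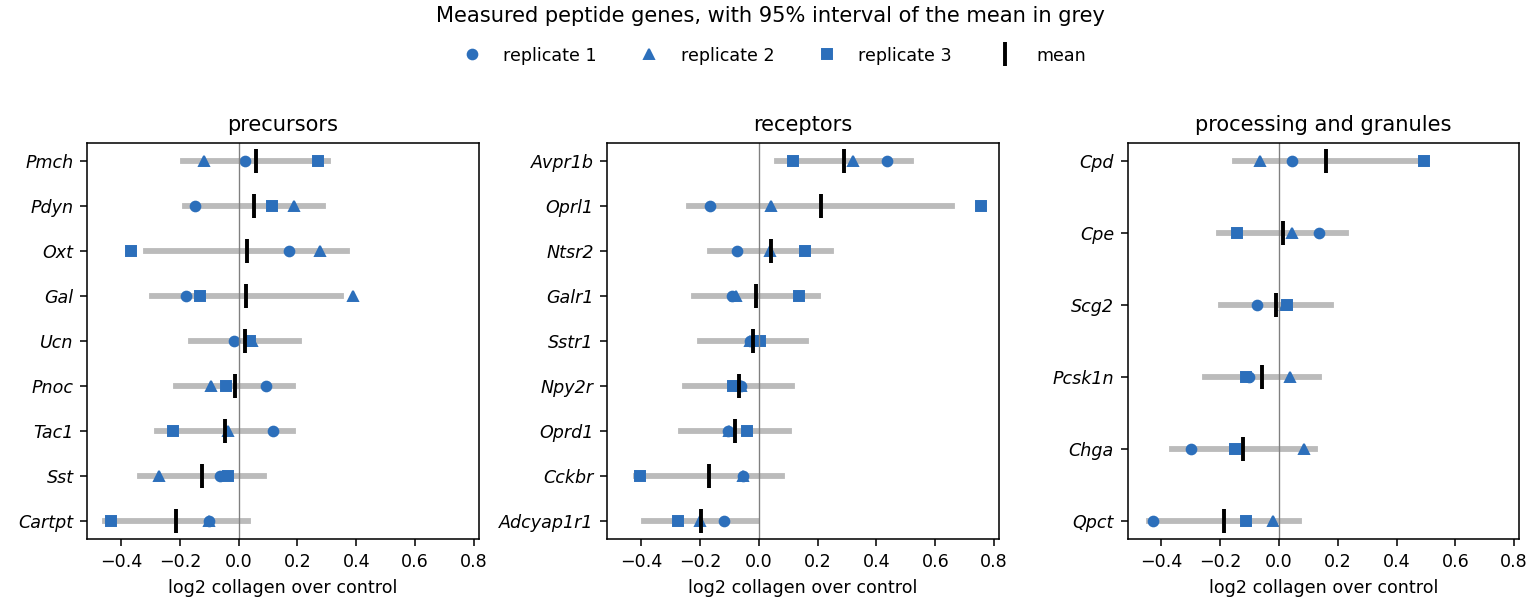
Log2 collagen over control (horizontal axis) of the 24 tested genes of the 3 peptide lists, with circles, triangles and squares for replicates 1, 2 and 3, a black tick for the mean and a grey bar for its 95% interval from limma's fit. The interval excludes 0 for Adcyap1r1 and Avpr1b before any adjustment for the 4139 probes tested.

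Likeness of pattern was measured as the root mean square difference of the ratios over the 5 dye-swap pairs, among 1686 named probes with all 5. Cartpt was closest to 4933434E20Rik (0.0384) and Mrpl49 (0.041), and Cckbr to Armcx1 (0.05) and Aacs (0.0592). The closest to Pmch were 6030458C11Rik at 0.124 and Selenop at 0.126. Oxt lacks a pair and was not compared. Across all tested probes the ratios of different replicates correlated at 0.0054 to 0.11, over genes, which are not independent replicates. Pairs of one replicate number lay in the same range, at 0.0297 for 1a and 1b and 0.0747 for 2a and 2b.

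**Figure D4:**
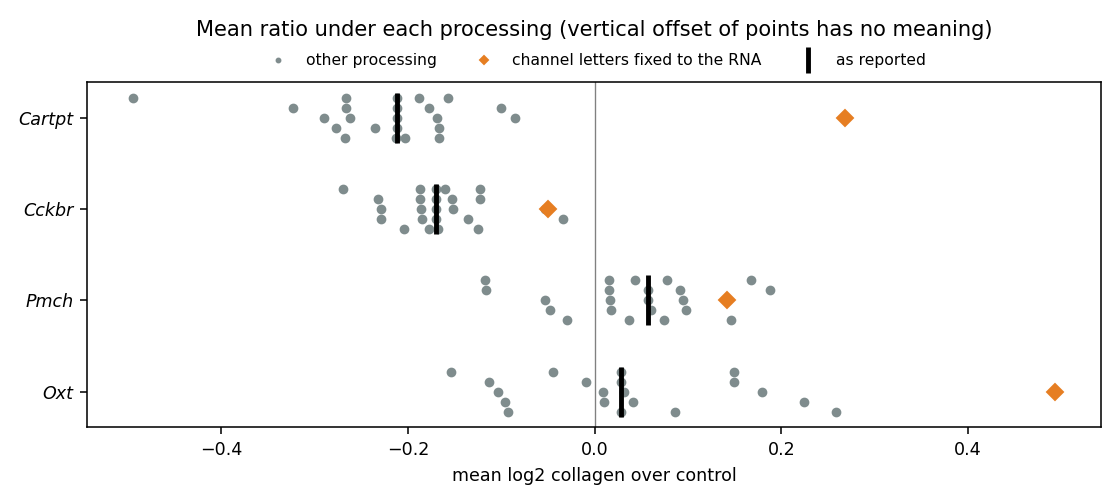
Mean log2 collagen over control (horizontal axis) of the 4 genes, as reported (black tick), under other processing (grey points) and with the channel letters tied to the RNA, control in A and collagen in B (orange diamonds). Grey points of Cartpt and Cckbr lie below 0, from -0.49 to -0.09 and from -0.27 to -0.03, while those of Pmch and Oxt lie on both sides of 0. The authors' value table is not drawn.

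Under the other ways of processing with the arrays turned by the dyes, Cartpt ranged from -0.49 (median centring) to -0.09 (print-tip loess) and Cckbr from -0.27 (median centring) to -0.03 (no background subtraction). Pmch ranged from -0.12 to 0.19 and Oxt from -0.15 to 0.26. No adjusted p of a member was below 0.544 among them. The authors' value table turned its sign with the dye labels on all 10 arrays. In that table, whose scale is unstated, Cartpt stood at 0.025 and -0.026 in replicates 1 and 2, with no value in replicate 3. Cckbr stood at -0.047, 0.0018 and -0.13. Neither gene thus kept 1 sign over its replicates there. If instead the channel letters followed the RNA, Cartpt would stand at 0.27 and Oxt at 0.49, with adjusted p values of 0.338 and 0.157 in limma's test.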

How the data were processed

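Per the labels' protocols, total RNA was reverse transcribed and labelled with Cy3 or Cy5. Per the file headers, the deposited scanner files hold spot intensity already corrected for background, the background, flags and a saturation factor (a fraction from 0 to 1). No source used here names the quantification software. The authors' value table holds a score per probe whose log base, scaling and direction are unstated; it was used only as an alternative. Spots were matched to probes in block order, which correlated with that table at 0.67 to 0.835 in size, against at most 0.0966 in slide order. Set against B over A of the same array, the sign was positive on the 5 arrays with collagen in Cy5 and negative on the 5 with collagen in Cy3, so the authors' table turns with the dye labels.

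Spots flagged X, Y or Z, or with an intensity of 0 in a channel, were left out, and the rest were normalised within each scan by loess with a span of 0.3 and 4 iterations (limma 3.58.1 in R 4.3.3). The mean over scans was turned by the dyes, and averaged over both arrays of a pair and the pairs of a replicate number. Repeat pairs were taken as the same RNAs because they share a replicate number; no label states it. Probes with 3 replicates were tested against 0 by lmFit and eBayes in a two-sided test, with p adjusted by Benjamini-Hochberg and a threshold of 0.05. limma's fit was tested on simulated data. The p-values set the mean against the spread between 3 replicates, after limma shared the variance in part over all tested probes. The series text calls the replicates biological. Levels per channel used Aquantile. Symbols come from the platform table, 8977 of 9066 updated through the gene identifier, and 12 probes with several symbols were not named.

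The members, the gene lists and the tests were chosen with earlier results of these data known. All members are named, with the highest and lowest tested gene of each peptide list, partners where measured, and the 2 closest patterns per member; other list genes measured in all replicates were named as examples. Marker genes were named after their values were seen. No probe sequences were available, so none is printed. The place of Avp next to Oxt comes from the mouse annotation named above. The number of arrays limits the precision.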

Additional observations from a re-analysis of the deposited data

Results flagged for a closer look

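Over 16 sets of 4 or 5 arrays of one dye orientation (ratio and brightness of each member), 2 had an array that lay far from the others. By chance alone about 1 in 20 sets would be marked. Both concern the same spot, that of Cartpt on the array of pair 3a with the collagen RNA in Cy5. They are not independent, so their count cannot be set against that rate. Its brightness percentile was 7.89, where the next array of that orientation had 88.5. Its log2 ratio of channel B over A was -0.51, where the next had 0.26.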

How the results depend on the processing

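Of 26 alternatives, 4 (leaving out 1 repeat dye-swap pair each) were chosen after the data were seen. No member and no peptide list gene passed the test of collagen against control in any alternative. The count of 0 probes past the test of collagen against control became 55 when the channel letters were tied to the RNA (control in A, collagen in B), where Cartpt was reversed at 0.27. With the replicate block, fits on 5 pairs or 10 arrays gave 0 such probes and left every member's call as it was; the consensus correlation was 0.042 over pairs. The count of 55 probes for channel B over A became 13 when only first scans were used and 8 with second scans. It became 0 with normexp or median centring, 83 with arrays scaled to each other and 90 with a trended robust prior. With the replicate block it was 95 over 5 pairs and 330 over 10 arrays, and 392 over 10 arrays with no block. Leaving out pair 1a gave 33, and leaving out 1 replicate gave 28 (replicate 2) to 218 (replicate 1).

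Pmch turned to -0.12 with median centring, -0.12 with the second and -0.030 with the last scan alone, and -0.053 without pair 2a, and lay between -0.048 (without replicate 3) and 0.15 with a replicate left out. Oxt turned to -0.00916 without background subtraction, -0.10 with normexp, -0.11 with median centring, -0.15 with the last scan alone and -0.093 without pair 2a, and lay between -0.10 (without replicate 2) and 0.22 with a replicate left out, also below 0 without replicate 1 at -0.04. In channel B over A, Cckbr turned to 0.14 with median centring, 0.064 with print-tip loess and 0.021 in the authors' value table, and lay between -0.17 and 0.048 with a replicate left out. Pmch turned there to -0.031 and -0.12 with the second and last scan alone and -0.00075 without pair 2a, and lay between -0.032 and 0.35 with a replicate left out. The cause was not tested. Cartpt had no value with the last scan alone, Oxt none with the first scan alone or without pair 1a, Pmch and Oxt none with the dimmer probes left out, and Cartpt and Oxt none in replicate 3 of the authors' table. Median signal over background in channel A was 1.13 for Pmch and for Oxt, 1.64 for Cckbr and 3.43 for Cartpt, and its part in these reversals was not tested.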
